A study of Mus musculus with 16 samples.

Results

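Guca2a, Guca2b and Gucy2c encode the 2 guanylin peptides of the gut and the receptor they share. They were taken by symbol from a table of 21442 genes measured in sorted mouse colon epithelium, so the set holds 3 genes, and each passed the filter on low counts that left 12915 genes for testing. The 3 genes were chosen with their levels in these 16 libraries already known, the higher levels of both peptide genes in goblet cells labelled SpdefKO among them. Their values are therefore given as a description with no test, and tests are reported only for other genes.

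Guanylin, the product of Guca2a, and uroguanylin, the product of Guca2b, are small peptides secreted as longer precursors. They bind guanylyl cyclase C, the product of Gucy2c, a receptor of the apical membrane of intestinal epithelial cells whose inner part makes cyclic GMP. Cyclic GMP activates the protein kinase Prkg2, which opens the chloride channel Cftr, and it lowers sodium uptake through the exchanger Slc9a3, so that salt and water enter the lumen. Phosphodiesterases break cyclic GMP down and Abcc4 and Abcc5 export it. In the colon guanylin is the more abundant peptide, and uroguanylin is better known from the small intestine.

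All mice carried the RedMUC298trTg reporter, in which mCherry marks goblet cells, and were aged 6–8 weeks. Live cells of the distal colon were sorted by mCherry, with gates set on a C57Bl6 mouse: GC is the mCherry-positive goblet cells and EC the rest of the epithelium. WT_GC and WT_EC came from RedMUC298trTg mice, and SpdefKO_GC and SpdefKO_EC from mice that were also Spdef -/-, lacking a transcription factor of the goblet lineage. Each of these 4 groups had 4 libraries, which are named here by the numbers in their titles. The promoter of the reporter, the background strain and the mouse behind each library remain not given in the sources used here. With no statement that libraries of 1 group are from different mice, p-values cover the spread between libraries only, and that spread can be technical in part.

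Gene counts summed to 10085637–17111987 per library, the smallest in library 20 of SpdefKO_EC. Levels are CPM, counts per 1000000 gene counts, scaled between libraries by TMM factors. Muc2, the main goblet cell mucin, averaged 12079 ± 681 CPM in the WT_GC libraries, against 48.3 ± 8.14 CPM in WT_EC (SD, n = 4 each). It averaged 12542 ± 1690 CPM in SpdefKO_GC and 28.0 ± 8.93 CPM in SpdefKO_EC (SD, n = 4 each). The sorted fractions thus carried the marker of their labels. Muc2 was lower in SpdefKO_EC than in WT_EC, with overlapping libraries (log2 difference -0.78, edgeR adjusted p = 0.00714). The targeted gene averaged 296 ± 17.7 CPM in WT goblet cells and 370.3 ± 62.2 CPM in those labelled SpdefKO (SD, n = 4 each), so Spdef counts did not check the label (log2 difference 0.33, edgeR adjusted p = 0.116). A gene-wide count need not drop where an allele removes only some exons, and the structure of this allele was not given in the sources used here. The genotype is therefore named throughout as the labels have it. Goblet cell lysates were purified on another kind of column than the other cells, so fraction and purification cannot be told apart.

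On GRCm38 (GENCODE M21) the peptide genes are neighbours on chromosome 4. Guca2a (ENSMUSG00000023247.2) spans 119637704–119639471 on the plus strand with 3 exons. Guca2b (ENSMUSG00000032978.14) spans 119656607–119658954 on the minus strand with 3 exons. The 2 genes point toward each other across 17135 bases. Gucy2c (ENSMUSG00000042638.14) lies on chromosome 6 at 136697284–136781765, minus strand, with up to 27 exons. No annotated gene overlaps any of the 3.

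The promoters of the peptide genes are shown because these neighbours had opposite levels in the sorted fractions. Both are from RefSeq (GRCm38.p6), 5′ to 3′ on the gene's own strand, and end at the base before the GENCODE gene. The Guca2a stretch is chr4:119637482-119637703 (plus strand) and the Guca2b stretch is chr4:119658955-119659195 (minus strand). No base is in capitals, since neither stretch held any of the 3 motifs reported after them.
Guca2a: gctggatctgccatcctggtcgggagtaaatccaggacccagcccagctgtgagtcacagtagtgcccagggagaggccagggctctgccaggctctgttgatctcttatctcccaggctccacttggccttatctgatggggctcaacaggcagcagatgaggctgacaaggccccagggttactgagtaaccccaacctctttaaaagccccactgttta
Guca2b: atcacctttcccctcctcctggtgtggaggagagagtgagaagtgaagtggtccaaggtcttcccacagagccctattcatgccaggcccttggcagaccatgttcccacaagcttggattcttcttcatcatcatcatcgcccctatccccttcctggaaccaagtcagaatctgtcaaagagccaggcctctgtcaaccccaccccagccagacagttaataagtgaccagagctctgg
The 250 bases before each RefSeq start were searched on both strands for motifs of 3 kinds of factor: CAAAGTC (HNF4), TTTATG (CDX) and CCGGAT (an SPDEF core). Neither promoter held any of the 3, which says only that these letters are not in this window. Of 32851 promoters of this length, 3.84% held CAAAGTC, 10.8% TTTATG and 4.94% CCGGAT.

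Guanylin was mainly a transcript of the mCherry-negative cells, and uroguanylin of goblet cells. Guca2a was 4.82-fold lower in WT_GC than in WT_EC, while Guca2b was 6.36-fold higher there. In goblet cells labelled SpdefKO both peptide genes were higher than in WT_GC, Guca2a 2.14-fold and Guca2b 2.70-fold. Gucy2c differed little between the groups and had its lowest level in SpdefKO_GC, at 78.5% of WT_GC. In these bulk samples, fewer cells of a type and less RNA per cell cannot be told apart.

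Guca2a was at 1178, 1359.6, 1167 and 1205 CPM in libraries 10, 12, 14 and 17 of WT_EC. In libraries 9, 11, 13 and 18 of WT_GC it was at 252, 226, 280.2 and 260.1 CPM. The mCherry-negative libraries were all above the goblet cell libraries, with group means of 1227 ± 89.5 and 255 ± 22.3 CPM (SD, n = 4 each). In SpdefKO_EC, libraries 4, 6, 8 and 20 held 1137, 1065, 1022 and 931 CPM. In SpdefKO_GC, libraries 3, 5, 7 and 19 held 566, 519.97, 538 and 555 CPM. These means were 1039 ± 86.2 and 545 ± 20.04 CPM (SD, n = 4 each), so SpdefKO_GC lay between WT_GC and the mCherry-negative cells. The order was WT_EC, SpdefKO_EC, SpdefKO_GC, WT_GC, and no neighbours in it overlapped.

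Differences below are log2 values from the edgeR model, with a standard error (SE) from the spread of log2 CPM between the libraries of each group. For Guca2a, SpdefKO_GC differed from WT_GC by 1.10 ± 0.07, and SpdefKO_EC differed from WT_EC by -0.24 ± 0.08. Guca2a was thus higher with the SpdefKO label in goblet cells and lower with it in the other cells, at 84.6% of WT_EC. The difference between these genotype differences was 1.34 ± 0.11. Within the genotypes, the goblet cell level was 20.7% of the mCherry-negative level in WT and 52.5% in the libraries labelled SpdefKO, with log2 differences of -2.27 ± 0.08 and -0.93 ± 0.07.

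Guca2b was at 4.69, 3.71, 4.13 and 4.55 CPM in libraries 10, 12, 14 and 17 of WT_EC, from 47 to 74 counts. In libraries 9, 11, 13 and 18 of WT_GC it was at 23.5, 26.4, 31.6 and 27.7 CPM. Every WT goblet cell library was above every WT mCherry-negative library, with means of 27.3 ± 3.37 and 4.27 ± 0.441 CPM (SD, n = 4 each). In SpdefKO_EC, libraries 4, 6, 8 and 20 held 3.12, 2.74, 3.96 and 1.88 CPM, from 18 to 61 counts. In SpdefKO_GC, libraries 3, 5, 7 and 19 held 75.01, 73.4, 67.5 and 79.001 CPM. The highest group was therefore SpdefKO_GC at 73.7 ± 4.76 CPM, and the lowest SpdefKO_EC at 2.93 ± 0.866 CPM (SD, n = 4 each). The order was SpdefKO_GC, WT_GC, WT_EC, SpdefKO_EC, and only the last 2 overlapped.

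For Guca2b the log2 difference between SpdefKO_GC and WT_GC was 1.43 ± 0.10. SpdefKO_EC differed from WT_EC by -0.51 ± 0.23, with overlapping libraries, and the difference between the 2 genotype differences was 1.95 ± 0.25. The gap between the fractions was thus wider with the SpdefKO label: goblet cells were above the other cells by 2.67 ± 0.11 in WT and by 4.61 ± 0.22, or 24.5-fold, in the libraries labelled SpdefKO. Guca2a showed the reverse, a narrower gap.

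Gucy2c was at 389, 379.9, 397 and 399 CPM in libraries 10, 12, 14 and 17 of WT_EC. It was at 343, 357, 346 and 373 CPM in libraries 9, 11, 13 and 18 of WT_GC. The receptor was thus transcribed at a similar level in both sorted fractions, with means of 391 ± 8.70 and 355 ± 13.5 CPM (SD, n = 4 each). Libraries 4, 6, 8 and 20 of SpdefKO_EC held 334, 337, 335 and 356 CPM. Libraries 3, 5, 7 and 19 of SpdefKO_GC held 287, 271, 285 and 271 CPM, all below the other 12 libraries. The means were 341 ± 10.4 and 278 ± 8.95 CPM (SD, n = 4 each). The order was WT_EC, WT_GC, SpdefKO_EC, SpdefKO_GC, and WT_GC and SpdefKO_EC overlapped.

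The log2 difference of Gucy2c was -0.35 ± 0.04 between SpdefKO_GC and WT_GC and -0.20 ± 0.03 between SpdefKO_EC and WT_EC. Unlike the peptide genes, the receptor was lower with the SpdefKO label in both fractions, and the 2 differences were -0.15 ± 0.04 apart. Between fractions it differed by -0.14 ± 0.03 in WT and by -0.29 ± 0.03 in the libraries labelled SpdefKO, goblet cells being lower. The WT fractions did not overlap with TMM factors and did overlap without them, where the difference was -0.06.

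**Figure D1:**
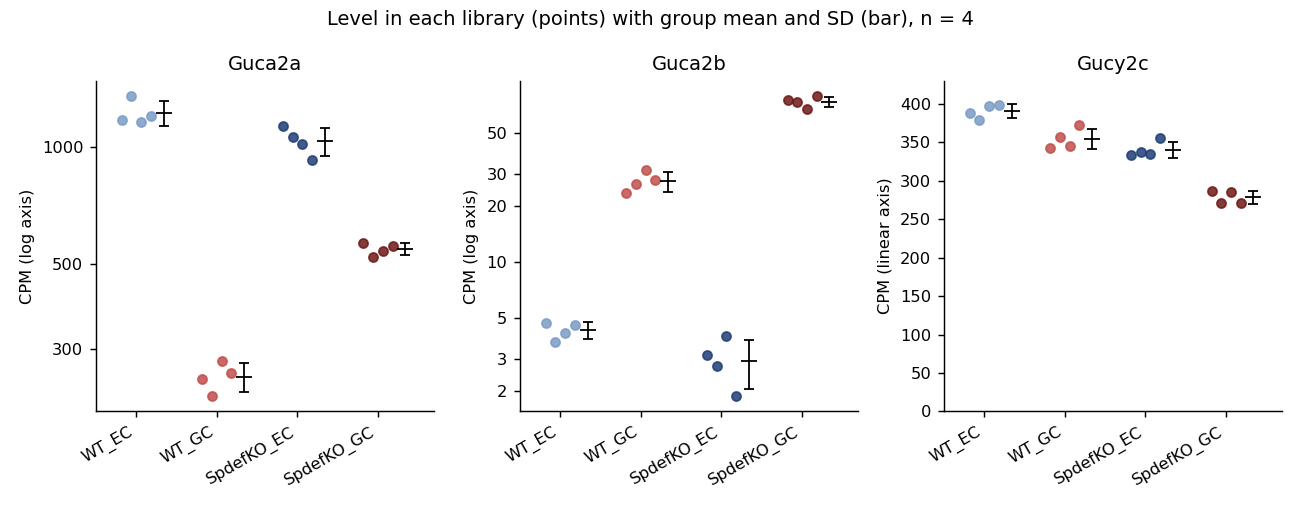
Level of Guca2a, Guca2b (log axes) and Gucy2c (linear axis) in CPM, 1 point per library, with the mean and SD of each group of 4. Guca2a was highest in WT_EC (1227 CPM on average), Guca2b in SpdefKO_GC (73.7 CPM), and Gucy2c stayed between 271 and 399 CPM.

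Library 20 of SpdefKO_EC, the smallest library, was the lowest of its group for Guca2a and Guca2b and the highest for Gucy2c. Its log2 deviations from the group mean were -0.15, -0.56 and 0.06. Without it, SpdefKO_EC differed from WT_EC by -0.19 for Guca2a, by -0.39 for Guca2b and by -0.22 for Gucy2c. Each direction was the same as with it.

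The libraries of the compared groups did not overlap for 3 of 3 genes between SpdefKO_GC and WT_GC, where this held for 25.1% of all genes tested. It held for 3 of 3 between WT_GC and WT_EC (59.4% of all genes), for 3 of 3 between SpdefKO_GC and SpdefKO_EC (48.1%) and for 2 of 3 between SpdefKO_EC and WT_EC (15.3%), the exception being Guca2b. The genes were chosen on these values, so nothing is read from the counts. The comparisons also share libraries: each group enters 2 of the 4.

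To set the genes against each other, levels were divided by the length of their merged exons, 594 bases for Guca2a, 870 for Guca2b and 3959 for Gucy2c. On this scale Guca2a averaged 2066 CPM per kb in WT_EC, 429 in WT_GC, 1748 in SpdefKO_EC and 917 in SpdefKO_GC. Guca2b averaged 4.91, 31.4, 3.36 and 84.8 CPM per kb in the same order of groups, and Gucy2c 98.8, 89.6, 86.04 and 70.3. Guca2a ranked 8th of 21122 genes with a length in both mCherry-negative groups, 66th in WT_GC and 21st in SpdefKO_GC. Guca2b ranked 7096th in WT_EC, 1536th in WT_GC, 8203rd in SpdefKO_EC and 452nd in SpdefKO_GC. Gucy2c ranked between 453rd and 578th in all groups. Guanylin was thus among the most abundant transcripts of the mCherry-negative cells, and Guca2b ranked above Gucy2c in SpdefKO_GC and below it in the other 3 groups.

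The balance of the peptides differed between fractions far more than between genotypes. The per-kb ratio of Guca2a to Guca2b was 427 ± 75.7 in WT_EC and 552 ± 143 in SpdefKO_EC, against 13.7 ± 1.38 in WT_GC and 10.8 ± 0.645 in SpdefKO_GC (SD, n = 4 each). Guca2b made up 6.82% of both peptides' transcripts in WT_GC (range 5.99–7.37%) and 8.46% in SpdefKO_GC (range 7.89–8.85%). In the mCherry-negative groups it made up 0.239% and 0.191%. The goblet cell ranges did not overlap, so uroguanylin was a slightly larger share in SpdefKO_GC, and guanylin remained the more abundant transcript everywhere.

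Transcripts of both peptides together were 21.0 ± 1.95 times those of Gucy2c per kb in WT_EC and 20.4 ± 2.21 times in SpdefKO_EC (SD, n = 4 each). In goblet cells the ratio was 5.14 ± 0.522 in WT_GC, from 4.56 to 5.81, and 14.3 ± 0.57 in SpdefKO_GC, from 13.6 to 15.0 (SD, n = 4 each). The ratio in goblet cells labelled SpdefKO was above all WT goblet cell libraries and below all mCherry-negative ones. It holds a higher peptide level and a lower receptor level. Ratios of RNA do not measure peptide or receptor protein.

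**Figure D2:**
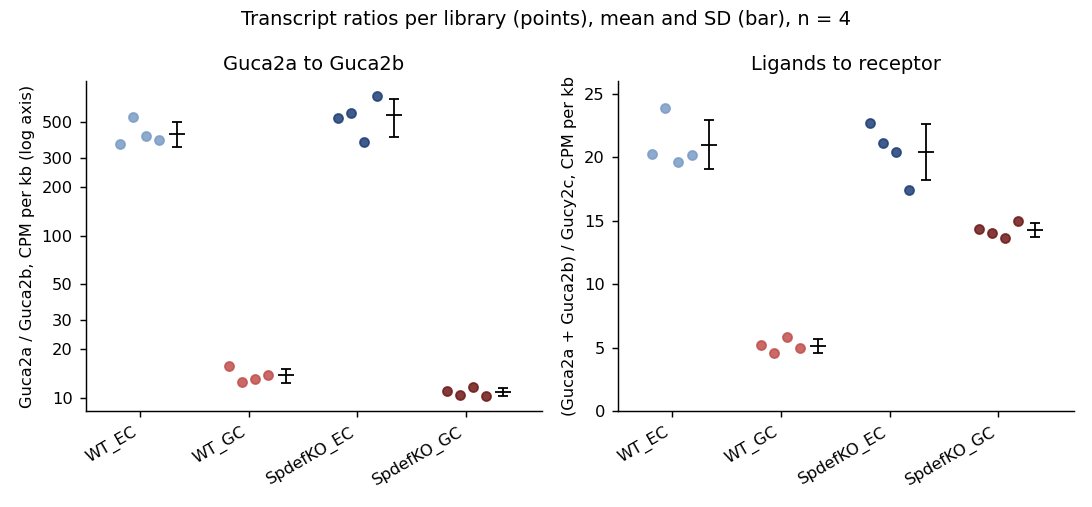
Ratio of Guca2a to Guca2b (left, log axis) and of both peptide genes to Gucy2c (right, linear axis), each from CPM per kb of exon, 1 point per library with the mean and SD of each group of 4. Goblet cell groups were at 13.7 and 10.8 on the left. On the right, SpdefKO_GC at 14.3 lay between WT_GC at 5.14 and the mCherry-negative groups.

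Levels of other cell types' markers are set beside these values. The 14 markers of absorptive colonocytes summed to 15039–17264 CPM in WT_EC, 1469–1792 in WT_GC, 13297–16225 in SpdefKO_EC and 1550–2090 in SpdefKO_GC. Between SpdefKO_GC and WT_GC, 5 of the 13 tested absorptive markers rose and 0 fell (edgeR adjusted p under 0.05), where 21.4% of all genes tested changed. None was at 0 in any group. Their goblet cell level was a median of 4.02% of the mCherry-negative level in WT (range 1.75–36.3%) and 6.88% in the libraries labelled SpdefKO (range 3.06–42.5%). Guca2a, at 20.7% in WT, was above 12 of these 13 markers, all but Scnn1a, a subunit of the epithelial sodium channel. At 52.5% in the libraries labelled SpdefKO it was above all 13.

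The 16 enteroendocrine markers summed to 92.6–129.8 CPM in WT_GC and 220.1–338 CPM in SpdefKO_GC, and 13 of 14 tested rose, where 21.4% of all genes changed, with a median log2 change of 1.59 (all genes: 0.0014). Both peptide genes and these markers were thus higher in SpdefKO_GC than in WT_GC. Goblet minus mCherry-negative, the tested markers had a median log2 difference of -2.23 in WT and -0.05 in the libraries labelled SpdefKO. Over all genes the medians were 0.05 and 0.03, and for Guca2a the differences were -2.27 and -0.93. The same markers summed to 571–771 CPM in WT_EC, where Guca2a was at 1227 CPM and Guca2b at 4.27 CPM. What enteroendocrine cells add to the level of either gene was not tested. The 9 goblet cell markers summed to 48276–55179 CPM in WT_GC and 53346–65734 CPM in SpdefKO_GC, and 3 rose and 2 fell between these groups, against the same 21.4% of all genes. In mCherry-negative cells the median goblet marker was at 1.19% of its goblet cell level in WT, and Guca2b at 15.6%, above all 9. In the libraries labelled SpdefKO the median was 0.738% and Guca2b was at 3.97%, above 7 of 9.

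Tuft cell markers (9) summed to 36.9–49.6 CPM in WT_GC and 19.8–44.4 CPM in SpdefKO_GC, and 0 of 7 tested passed edgeR's test between them, with 1 at an unadjusted p under 0.05. Immune markers (8) summed to 6.80–8.27 and 9.04–13.6 CPM, and stromal and endothelial markers (7) to 2.67–3.65 and 8.27–11.2 CPM. Of these, 2 of 5 tested immune markers and 1 of 3 tested stromal markers rose, where 21.4% of all genes changed. Both sums were low in both groups and higher in SpdefKO_GC. In the mCherry-negative cells, 8 of 14 tested enteroendocrine markers and 5 of 7 tested tuft markers fell in SpdefKO_EC against WT_EC, where 12.6% of all genes changed. The enteroendocrine sum went from 571–771 to 256–428 CPM and the tuft sum from 39.2–76.9 to 9.48–16.7 CPM, in the comparison in which Guca2a and Guca2b were also lower. Of 9 goblet cell markers, 4 fell and 0 rose there, against the same 12.6% of all genes. Their sum went from 588–774 to 538–583.5 CPM. Of 13 tested absorptive markers, 3 rose and 2 fell. The part of any of these cell types in the levels of the 3 genes was not tested.

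**Figure D3:**
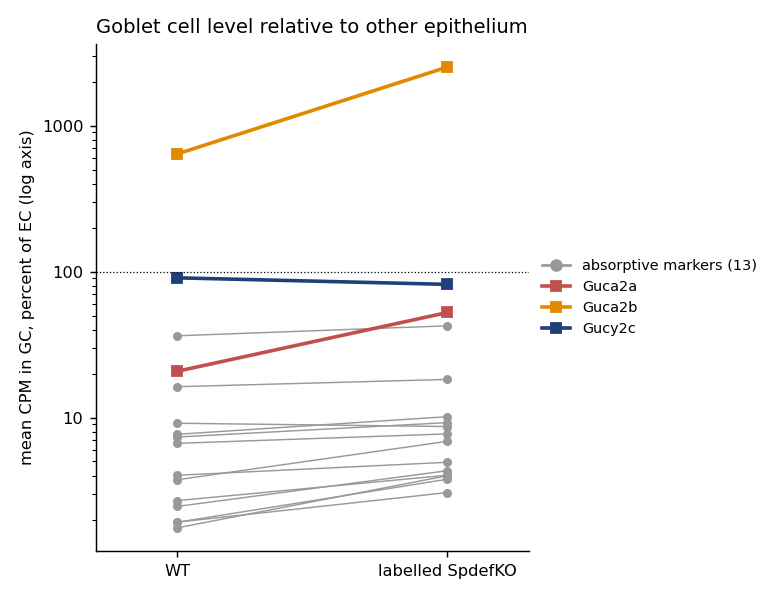
Mean CPM in goblet cells as a percent of that in mCherry-negative cells (log axis) in WT and in libraries labelled SpdefKO, for the 3 genes and 13 absorptive markers in grey. Guca2a went from 20.7% to 52.5%, the markers from a median of 4.02% to 6.88%, Gucy2c lay just under the dotted line at 100% and Guca2b far above it.

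The pathway around the receptor was read from a list of 63 genes that holds none of the 3, of which 36 passed the filter on low counts. Between SpdefKO_GC and WT_GC, 7 of 36 rose and 3 fell (edgeR adjusted p under 0.05), 10 in all, where 21.4% of all genes tested changed. The median log2 change of the 36 was 0.10, and of all genes 0.0014. Leaving out library 6 of SpdefKO_EC, which shares the model's estimate of spread, gave 5 that fell. Between SpdefKO_EC and WT_EC, 4 rose and 4 fell, where 12.6% of all genes changed. The 4 that rose became 0 without SpdefKO_EC 4, 1 without WT_EC 10 and 2 without WT_EC 17 or SpdefKO_EC 8.

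None of the 14 other guanylyl cyclases, natriuretic peptides and their receptors passed the filter that Gucy2c passed. The highest group mean among the 14 was 0.463 CPM, for Npr1, the atrial peptide receptor, in SpdefKO_GC.

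Of 9 targets of cyclic GMP, 3 were tested. Between SpdefKO_GC and WT_GC 0 passed (1 at an unadjusted p under 0.05), where 21.4% of all genes changed. Prkg2, the membrane-bound kinase that acts on Cftr, averaged 3.43 ± 0.896 CPM in WT goblet cells against 2.32 ± 0.581 CPM in those labelled SpdefKO (SD, n = 4 each), with overlapping libraries. The log2 difference was -0.55 ± 0.24 (edgeR adjusted p = 0.0968), and without WT_GC 13 or SpdefKO_GC 7 it passed (adjusted p = 0.0470 and 0.0433). In the mCherry-negative cells Prkg2 was at 17.8, 15.95, 12.2 and 17.8 CPM in WT libraries 10, 12, 14 and 17. It was at 4.91, 6.59, 8.25 and 6.46 CPM in SpdefKO libraries 4, 6, 8 and 20. All 4 lay below all WT libraries, and the gene fell by 1.28 ± 0.20 (edgeR adjusted p = 0.000249). Enteroendocrine, tuft and goblet markers fell in the same comparison (8 of 14, 5 of 7 and 4 of 9 tested, against 12.6% of all genes changed). The part of these markers' cells in the changes of the pathway genes was not tested.

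Of 18 genes of cyclic GMP breakdown and export, 12 were tested. In SpdefKO_GC against WT_GC 4 of them rose and 1 fell, where 21.4% of all genes changed. Pde1c, a calcium-dependent phosphodiesterase, rose from 3.18 ± 0.405 to 8.02 ± 1.01 CPM (SD, n = 4 each; log2 change 1.33 ± 0.13, edgeR adjusted p = 0.000157). Pde2a, a phosphodiesterase that cyclic GMP itself stimulates, was at 459, 431, 432 and 461 CPM in WT_GC, against 274, 256, 288 and 241 CPM in the SpdefKO_GC libraries. Those groups did not overlap, and Pde2a fell by 0.75 ± 0.06 (edgeR adjusted p = 0.00017). Pde9a, specific for cyclic GMP, rose by 0.36 (adjusted p = 0.0186), and the exporters Abcc4 and Abcc5 rose by 0.28 and 0.55 (adjusted p = 0.0115 and 0.0284). Pde9a and Abcc5 were named after their values were seen. The Pde9a call was lost without WT_GC 11 (adjusted p = 0.0530), and the Abcc5 call in 7 of 22 alternatives (adjusted p 0.0534–0.0742), among them those without WT_GC 9, 13 or 18 or SpdefKO_GC 5 or 7. Pde5a, also specific for cyclic GMP, was at 108 ± 6.52 and 118 ± 7.07 CPM (SD, n = 4 each), a log2 difference of 0.12 that did not pass (adjusted p = 0.242).

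Of 15 ion transport genes and scaffolds, 14 were tested. Between SpdefKO_GC and WT_GC 3 rose and 2 fell, where 21.4% of all genes changed. Slc9a3, the sodium-hydrogen exchanger that the pathway restrains, was at 4.06, 4.52, 2.60 and 4.71 CPM in WT_GC. It was at 14.9, 12.02, 10.95 and 16.8 CPM in SpdefKO_GC, above all WT libraries. This rise of 1.79 ± 0.24 (edgeR adjusted p = 9.91e-06) was at a level far below the 250.2 ± 46.9 CPM of WT_EC (SD, n = 4). Among the scaffolds on the list, Slc9a3r1 rose by 0.39 (adjusted p = 0.00597), and Slc9a3r2 fell by 1.80 ± 0.12, from 29.8 to 8.56 CPM (adjusted p = 5.13e-08). Slc9a3r1 was named after its value was seen. Of 13 tested absorptive markers, 5 rose and 0 fell in the same comparison, with a median log2 change of 0.41 (all genes: 0.0014). Of the 7 pathway genes that rose, Slc9a3, Slc9a3r1, Slc26a3, Pde9a and Abcc5 were lower in WT_GC than in WT_EC. The other 2, Abcc4 and Pde1c, were higher in WT_GC (log2 0.54 and 0.67, edgeR adjusted p = 6.32e-06 and 0.0188). The part of absorptive cells in the rises in SpdefKO_GC was not tested.

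Slc12a2, the cotransporter that brings chloride into secreting cells, fell by 0.83 ± 0.10 (edgeR adjusted p = 2.7e-06), from 1313 ± 159 to 740 ± 46.1 CPM (SD, n = 4 each). Cftr was at 139.7, 177, 158 and 170.1 CPM in WT_GC, against 122, 133, 132 and 134 CPM in the SpdefKO_GC libraries. The groups did not overlap, yet the difference of -0.31 ± 0.08 did not pass (adjusted p = 0.0513), and it passed in 8 of 22 alternatives. Among these were the fits without WT_GC 9 and without SpdefKO_EC 4, 6, 8 or 20, and the adjusted p in the 8 was 0.0160–0.0484. Slc26a3, the chloride-bicarbonate exchanger of absorptive cells, rose by 0.47 ± 0.24 with overlapping libraries (adjusted p = 0.0452). That call was lost in 10 of 22 alternatives (adjusted p 0.0532–0.150), among them the fits without WT_EC 12, WT_GC 9, 11 or 13, SpdefKO_EC 6 or 8 and SpdefKO_GC 3 or 19. Pdzd3, a scaffold that binds the receptor, differed by -0.07 ± 0.09 (adjusted p = 0.706).

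In the mCherry-negative cells Slc9a3 rose by 0.58 ± 0.17 (edgeR adjusted p = 0.0162), a call lost without WT_EC 10, WT_EC 17 or SpdefKO_EC 4 (adjusted p 0.0583–0.0611). Pde9a rose by 0.41 (adjusted p = 0.0125), lost without SpdefKO_EC 4 and where only the compared groups were fitted (adjusted p 0.0517–0.0597). Clcn2, a chloride channel of the surface epithelium, rose by 0.35 (adjusted p = 0.0345), lost in 8 of 22 alternatives (adjusted p 0.0515–0.107), among them those without WT_EC 10, 14 or 17 or SpdefKO_EC 4, 6 or 8. Slc4a4, the sodium bicarbonate cotransporter, fell by 0.81 ± 0.17 (adjusted p = 0.000886). The other 3 calls, named after their values were seen, were in genes with group means under 2 CPM in WT_EC and in SpdefKO_EC. Cnga3 rose by 1.24, Pde1c fell by 1.11 and Pde6a fell by 1.86 (edgeR adjusted p = 0.0331, 0.0152 and 0.00358). The Cnga3 call was lost in 6 alternatives (adjusted p 0.0532–0.114), among them those without WT_EC 10 or 14 or SpdefKO_EC 4 or 8. The Pde1c call was lost in 3 (adjusted p 0.0528–0.0596), among them those without SpdefKO_EC 4 or 8.

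**Figure D4:**
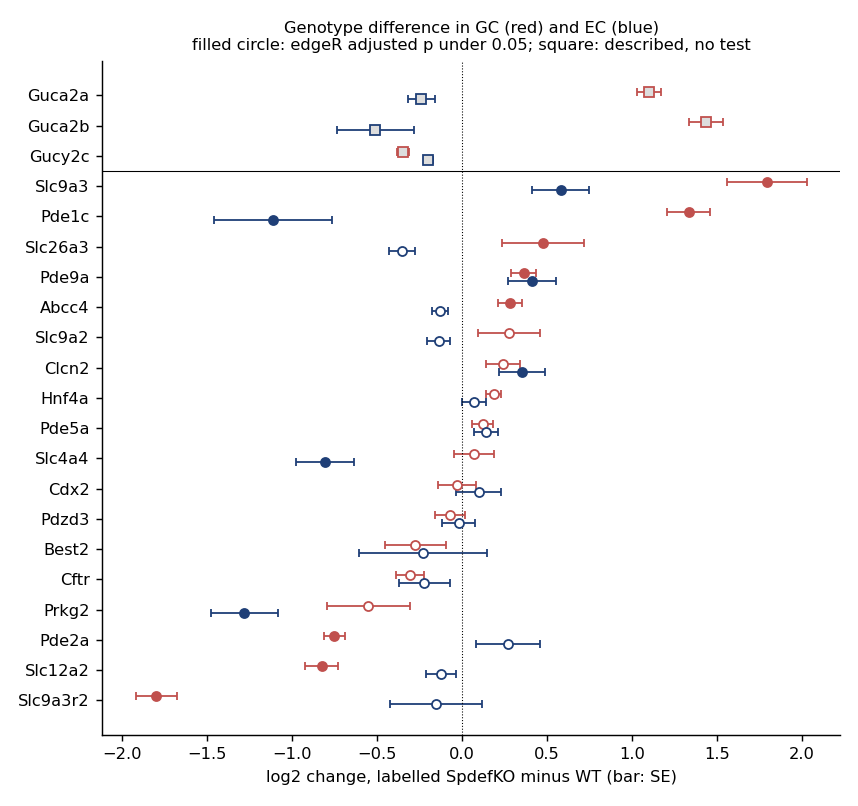
Log2 difference between libraries labelled SpdefKO and WT in goblet cells (red) and mCherry-negative cells (blue), with the SE as a bar, for the 3 genes (squares, not tested) and 18 genes of the pathway list (circles, filled where the edgeR adjusted p was under 0.05). Both peptide genes lay right of 0 in red and left of it in blue, and Gucy2c lay left of 0 in both.

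Between the WT fractions, where Guca2a was lower and Guca2b higher in goblet cells, 8 of the 36 pathway genes rose in WT_GC and 24 fell, with a median log2 change of -0.87. Of all genes tested, 61.2% changed, and their median log2 change was 0.05. Lower in goblet cells, as Guca2a was, were Slc9a3 (-5.98), Slc26a3 (-5.24), Slc9a2 (another sodium-hydrogen exchanger, -4.12), Prkg2 (-2.23), Pdzd3 (-2.17) and Cftr (-0.97). Their edgeR adjusted p ran from 5.85e-15 for Slc9a2 to 2.52e-07 for Cftr. Higher in goblet cells, as Guca2b was, were Best2 (a bicarbonate channel of goblet cells, 8.44), Slc9a3r2 (4.76) and Pde2a (3.87). In the libraries labelled SpdefKO the counts were again 8 and 24, with a median of -0.80, where 56.4% of all genes changed. In the test of whether the genotype difference itself differed between fractions, 8 of 36 were higher in goblet cells and 3 lower, where 9.53% of all genes passed. The 8 became 4 without WT_EC 17 and 5 without WT_GC 9, WT_GC 13, SpdefKO_EC 4 or SpdefKO_GC 5.

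Of 7 gut transcription factors of the list, 0 passed between SpdefKO_GC and WT_GC in the edgeR test (3 at an unadjusted p under 0.05). Of all genes tested 21.4% changed there. Hnf4a was at 387 ± 16.9 and 440.5 ± 17.7 CPM in WT_GC and SpdefKO_GC (SD, n = 4 each), a difference of 0.19 that did not pass (edgeR adjusted p = 0.0608). It passed in 7 of 22 alternatives (adjusted p 0.0298–0.0483), among them those without WT_EC 12, WT_EC 14 or SpdefKO_EC 20. Cdx2 was at 75.7 ± 4.51 and 74.1 ± 10.6 CPM (SD, n = 4 each), a difference of -0.03 (adjusted p = 0.886). Between the WT fractions Hnf4a fell by 1.49 and Cdx2 by 0.66 in goblet cells.

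The profile of each of the 3 genes across the 16 libraries was compared with those of 10411 genes, by the root-mean-square difference of log2 CPM centred on each gene's mean, where 0 is an identical profile. Nearest to Guca2a were Tiam2 (0.24), Tbc1d2 (0.25), Slc35d1 (0.28), Elf4 (0.28) and Ppp1r14d (0.29), against a median of 0.94 over all genes. Tiam2 averaged 38.7, 8.30, 36.3 and 14.6 CPM in WT_EC, WT_GC, SpdefKO_EC and SpdefKO_GC. Nearest to Guca2b were Cacna1c (0.36), Fam117a (0.41), Mmp28 (0.43), Dll1 (0.45) and Cxxc5 (0.47), against a median of 1.90. Dll1, a Notch ligand of secretory precursors, averaged 10.2, 74.5, 10.5 and 133 CPM in the same order. Nearest to Gucy2c were Mterfd1 (0.08), Dom3z (0.08), Uckl1 (0.09), Atp6v1e1 (0.09) and Gnl1 (0.10), against a median of 0.32. The 3 genes were not near each other: Guca2a and Guca2b were 2.63 apart, Guca2a and Gucy2c 0.87, and Guca2b and Gucy2c 2.04. All points share their libraries, so this ranks likeness over 4 groups and no more.

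Genes beside the peptide genes on chromosome 4 were looked at as well. The nearest tested genes were Foxj3 at 8585 bases and AA415398 at 98175 bases from Guca2a, and Hivep3 at 74830 bases and Edn2 at 502252 bases from Guca2b. Between SpdefKO_GC and WT_GC, 21.4% of all genes changed, and 0 of these 4 passed the edgeR test (1 at an unadjusted p under 0.05, Hivep3). The 4 log2 differences were -0.11, -0.09, 0.66 and -0.35, with adjusted p of 0.421, 0.838, 0.0661 and 0.533. Beside Gucy2c on chromosome 6, Plbd1 fell by 0.52 (adjusted p = 0.000628), H2afj fell by 0.59 (adjusted p = 2.26e-05) and Atf7ip rose by 0.28 (adjusted p = 0.0357). Hist4h4 differed by 0.39 (adjusted p = 0.159).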

How the data were processed

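RNA of 16 libraries was sequenced. The deposited values are whole-number counts per gene symbol, 1 column per library. A second deposited table holds a normalized signal (each count over its library's size factor) and was used only for the names of 27 symbols that had turned into dates in the counts. Named in the submitters' processing notes, with no role, are the build mm10 and the tools STAR 2.4.0f, HTSeq 0.6.1p1, FastQC 0.11.2 and DESeq2 1.14. Annotation and strand setting were not given in the sources used here. Overlaps of the partner genes with others were not examined. Left out were 3 lines without a gene name, with 47.1–54.7% of counts.

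All libraries entered 1 edgeR quasi-likelihood fit (edgeR 4.0.16, limma 3.58.1, R 4.3.3) with TMM factors, a coefficient per group and the default filter on low counts; common dispersion was 0.0137. P-values were Benjamini-Hochberg adjusted over 12915 genes. Log2 CPM used a prior count of 2. The script was tested on simulated data. By a chi-square test (4.33–32.5 per degree of freedom), no pair of libraries of 1 group agreed within sampling noise. Gene positions and lengths come from GENCODE M21. Clca1 appears as Clca3.

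Named were the 3 genes, Prkg2, Cftr, Slc9a3, Pdzd3, Pde5a, Slc26a3, Abcc4, Hnf4a, Cdx2, Spdef and Muc2; per comparison, the 6 called pathway genes with the largest change and at least 5 CPM in the higher group (in the test of the difference between genotype differences, also genes named elsewhere and called there, added after their values were seen); the 5 nearest profiles; and the 2 tested neighbours on each side. A further gene of the rule, and a further motif, are not reported here. The genes and lists were chosen with earlier results of these data known. Alternatives were DESeq2 1.42.0, limma-voom, upper-quartile or no scaling factors, no filter, only the groups compared, and leaving out each library.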

Additional observations from a re-analysis of the deposited data

Results flagged for a closer look

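In 5 of 84 groups of 4 libraries, 1 library lay far from the other 3 by Dixon's criterion, which chance alone gives in about 1 of 20 groups. Among the 3 genes this was Gucy2c in library 20 of SpdefKO_EC, at 356 CPM where the other 3 were at 334–337 CPM. The others were Slc9a3 and Clcn2 in library 12 of WT_EC (320.4 and 455 CPM), Cftr in library 3 of SpdefKO_GC (122 CPM) and Cdx2 in library 18 of WT_GC (82.4 CPM).

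For 8 named pathway genes the genotype difference was not the same in goblet cells as in mCherry-negative cells, by edgeR's test of the difference between the differences. Of all genes tested 9.53% passed, and the naming rule favoured genes that were called. Higher in goblet cells on this measure were Pde1c (log2 2.45, adjusted p = 0.000208), Slc9a3 (1.21, adjusted p = 0.00612), Slc4a4 (0.88, adjusted p = 0.00708), Slc26a3 (0.83, adjusted p = 0.0267) and Abcc4 (0.41, adjusted p = 0.0217). Lower were Slc9a3r2 (-1.64, adjusted p = 0.00217), Pde2a (-1.02, adjusted p = 0.00101) and Slc12a2 (-0.70, adjusted p = 0.00162). The Slc26a3 call was lost without WT_EC 17, WT_GC 9, 11 or 13 or SpdefKO_GC 19 (adjusted p 0.0517–0.0649 over its lost calls, no filter on low counts included). Without a filter on low counts the Abcc4 call was lost (adjusted p = 0.0577).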

How the results depend on the processing

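No paired analysis was run, because no library number in the labels is shared between groups. The tests between fractions therefore treated the libraries as independent. Each goblet cell number adjoins that of an mCherry-negative library of its genotype, but the labels do not say what a number marks, so such a pairing was not assumed or tested. None of the 327 recomputed log2 differences of the 3 genes changed direction, and 318 stayed within the spread between libraries. The 9 that moved came from the scaling. With upper-quartile factors and with no scaling factor, Gucy2c gave -0.0571 and -0.0633 between WT_GC and WT_EC, -0.18 and -0.16 between SpdefKO_GC and SpdefKO_EC, and -0.24 and -0.24 between SpdefKO_EC and WT_EC. Guca2a gave -0.82 and -0.80 between SpdefKO_GC and SpdefKO_EC. With no scaling factor the Gucy2c difference between genotype differences was -0.10.

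Of the 36 tested pathway genes, the number that rose between SpdefKO_EC and WT_EC was 1 with only the compared groups fitted, and 0–5 when 1 library was left out. The number higher in the test of the difference between differences was 8, against 4 with no filter on low counts and 4–9 when 1 library was left out. Between SpdefKO_GC and WT_GC the number that rose was 7, against 5–9 when 1 library was left out. The number that fell was 3–5 when 1 library was left out. Of 1548 recomputed values of single pathway genes, 47 lost their call and 18 gained one. In 20 of them, over 6 results for Pdzd3, Cdx2, Cftr and Pde5a, the sign changed, 0 of them called in either fit. Depth limits Guca2b in the mCherry-negative libraries, with 18–74 counts each.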
